A study of Homo sapiens with 12 samples.

Results

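The genes described are 10 transcripts commonly listed as targets of the tumour suppressor p53: TP53INP1, CDKN1A, MDM2, PLK2, PLK3, GADD45A, GADD45B, SESN1, ZMAT3 and XPC. They were chosen by name, with results of these libraries already known, out of 57500 gene identifiers in the count tables. All 10 were found and all 10 passed the filter on low counts, which left 16402 genes. A lower level of TP53INP1 at 10% CO2 without LPS was among the results known at that choice, so that value is given as a description, and nothing is read from a count that includes it.

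p53 is a transcription factor that binds DNA as a tetramer and, after DNA damage and other stresses, switches on genes that stop the cell cycle, repair DNA, limit oxidative damage or start cell death. Its targets also include MDM2, the ubiquitin ligase that marks p53 for destruction and so closes a feedback loop. Many of the same genes answer other inputs, among them NF-kB, AP-1, FOXO and ATF4. THP-1, the established human monocytic leukaemia line used here, is known to lack functional p53, so the changes below were measured in cells without that regulator.

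The study asked how buffered hypercapnia, in which CO2 is raised while a buffer keeps the pH steady, alters transcription in monocytic cells at rest and under an inflammatory stimulus. The groups were 10% CO2 with LPS, 5% CO2 with LPS, 10% CO2 and 5% CO2, each with 3 libraries. CO2 was held for 4 h, and LPS, a bacterial cell wall lipid sensed through TLR4, was present at 2.5 µg/ml for the last 2 h. All 12 libraries came from THP-1 carrying a lentiviral non-target shRNA, the controls included. The labels do not say whether replicates were separate cultures or whether the transduced line was a clone or a pool, so the p-values reflect only differences among these libraries, which could be technical.

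The libraries held 17.1 to 22.2 M counts each. Levels are given as CPM, the count of a gene divided by the TMM-scaled library size in M, and a floor of 3 counts corresponded to 0.135 to 0.175 CPM. All 9 monocyte or myeloid markers passed the filter, with a summed level of 670 to 939 CPM, and none of 4 T cell markers did (at most 0.429 CPM summed). The summed levels of B cell, erythroid, epithelial, fibroblast and endothelial markers were each at most 4.21 CPM, and HBA1 had 0 counts in every library. All 5 genes taken as a check of LPS (TNF, IL1B, CXCL8, CCL3 and NFKBIA) rose with LPS at both CO2 levels, by log2 4.04 to 8.42. The mitochondrial genome made up 3.11% ± 0.95 of counts at 10% CO2 with LPS and 1.55% ± 0.249 at 5% CO2 with LPS, and 2.66% ± 0.563 at 10% CO2 and 1.57% ± 0.340 at 5% CO2 (SD, n = 3). At each LPS level every 10% CO2 library had a higher share than every 5% CO2 library. This share moved with each CO2 comparison below, and its part in those results was not tested.

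The p53 binding sequence is a pair of half-sites of 10 bases, each with a core of 4 bases that p53 contacts directly. Each gene was searched from 5000 bases before to 5000 bases after its start for the 20-base consensus with no spacer. Both cores had to match the consensus exactly, and up to 2 mismatches were allowed in the other bases. Of the 10 genes, 5 held such a match, against 4.94% of 16365 tested genes. The 10 were chosen as listed p53 targets, so this share and the one below are descriptions and not tests. The matches are shown as the stretches near these genes most like the p53 consensus, with the core of each half-site in capitals and coordinates on GRCh38, on the strand of the gene:
ZMAT3: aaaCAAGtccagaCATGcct
PLK2: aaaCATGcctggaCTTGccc
GADD45A: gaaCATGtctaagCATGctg
CDKN1A: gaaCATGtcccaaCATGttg
GADD45B: agaCTTGgttgaaCTTGgtt

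The ZMAT3 element (chr3:179070188-179070207, minus strand) lay in an intron and had 0 mismatches. The PLK2 element (chr5:58462274-58462293, minus strand) also had 0 mismatches and lay outside the gene, 2033 bases before its start. A match with 0 mismatches was found for 0.141% of tested genes. The GADD45A element (chr1:67686775-67686794, plus strand) was intronic, with 1 mismatch. The CDKN1A element (chr6:36676449-36676468, plus strand) began 11 bases before the annotated gene start and lay partly in an exon. The GADD45B element (chr19:2478021-2478040, plus strand) lay in an exon. The CDKN1A and GADD45B elements each had 2 mismatches. A gene start here is the outermost base of all annotated exons, which need not be the start in use. A match is a string in the reference genome, not a measured site of binding, and the other 5 genes having none says only that no such string lay in the window.

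Over all genes tested, more were called with LPS than with CO2, and the counts for the 10 genes are given as descriptions. With LPS at 10% CO2, 7 of the 10 were called (edgeR quasi-likelihood test, Benjamini-Hochberg adjusted p under 0.05 over 16402 genes), where 35.2% of all genes tested were called. TP53INP1, MDM2, PLK2, PLK3, GADD45A and SESN1 rose and XPC fell. At 5% CO2, 7 were again called, where 24.9% of all genes were: TP53INP1, MDM2, PLK2, PLK3, GADD45A and GADD45B rose, and XPC fell. The median log2 change of the 10 with LPS was 0.56 at 10% CO2, where that of all genes was -0.02, and 0.45 at 5% CO2, where that of all genes was -0.01. The calls were 6 higher and 1 lower at each CO2 level, against 16.6% higher and 18.6% lower over all genes at 10% CO2 and 11.8% and 13.1% at 5% CO2. Both LPS comparisons concern a list drawn up with results known, so these counts describe the 10 genes and say nothing of p53 targets at large. Both counts and medians hold TP53INP1, whose LPS changes are measured from the groups without LPS that gave the value known at the choice. Without TMM scaling, on library sizes only, the median of all genes moved to -0.24 at 10% and -0.19 at 5% CO2. All calls with LPS then split into 1520 higher and 5727 lower at 10% CO2, in place of 2727 and 3046, and into 1172 higher and 4226 lower at 5% CO2, in place of 1940 and 2152. SESN1 at 10% CO2 (adjusted p = 0.876) and GADD45B at 5% CO2 (adjusted p = 0.142) lost their calls under that scaling, and the other 6 called at each level kept theirs.

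For 10% against 5% CO2 with LPS, 2 of the 10 were called, where 8.75% of all genes were: PLK2 fell and SESN1 rose, against 4.46% called lower and 4.29% called higher. Without LPS 1 was called (TP53INP1, lower), where 1.46% of all genes were, 0.665% lower and 0.799% higher. That count is the value known at the choice of the genes, and nothing is read from it. The median log2 change of the 10 with CO2 was 0.01 with LPS and -0.19 without, and that of all genes was -0.01 in both. Libraries at 10% CO2 lay wholly apart from those at 5% CO2 for 3 genes without LPS (TP53INP1, MDM2 and PLK2, all lower), where 20.7% of all genes did so, 10.2% as lower. This count and the median without LPS also hold the value known at the choice, and nothing is read from them. With LPS the libraries of the 2 CO2 levels lay apart for 3 (CDKN1A and PLK2 lower, SESN1 higher), where 31.4% of all genes did so, 15.2% as lower and 16.2% as higher. LPS libraries lay wholly apart from those without LPS for 7 genes at 10% CO2, 6 higher and 1 lower, where 46.1% of all genes did so, 21.9% as higher and 24.2% as lower. At 5% CO2 they lay apart for 7, again 6 higher and 1 lower, where 39.2% of all genes did so, 18.9% as higher and 20.4% as lower. Both LPS counts hold TP53INP1, measured from the groups that gave the known value. On library sizes only, the split of all calls for CO2 with LPS was 505 higher and 970 lower in place of 703 and 732.

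**Figure D1:**
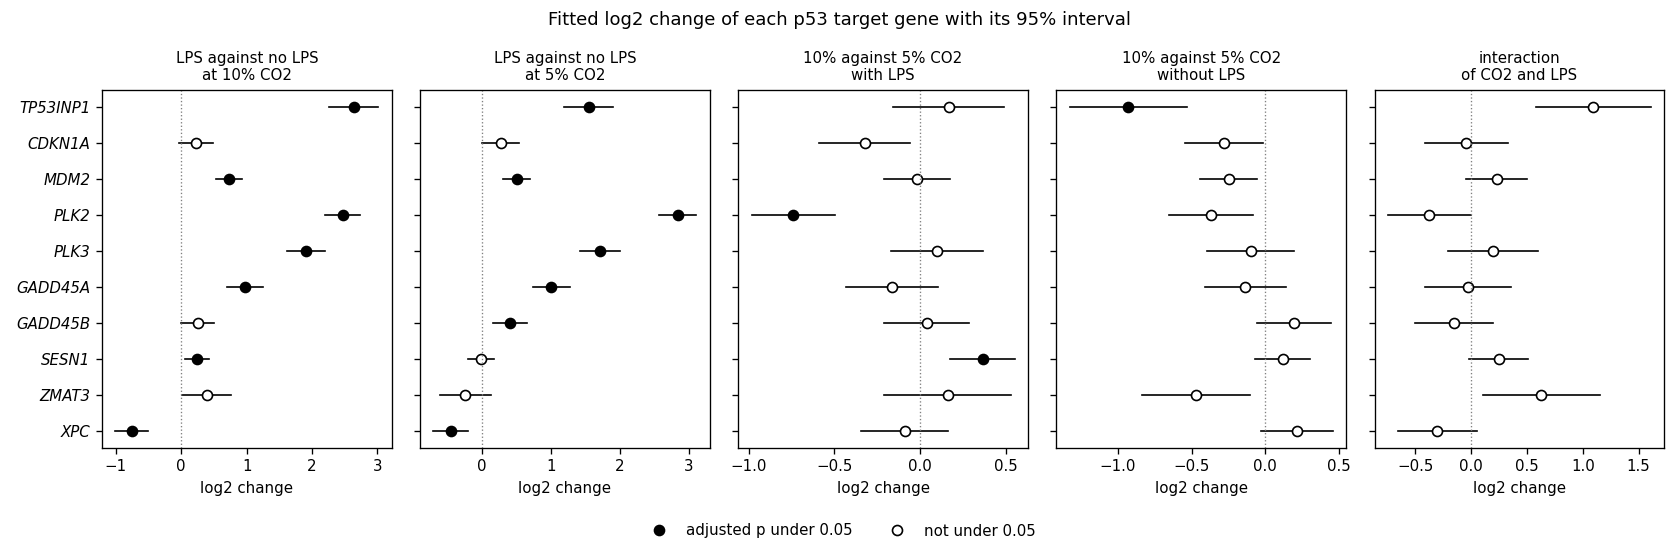
Fitted log2 change (x axis) of each of the 10 genes (y axis) in the 4 pairwise comparisons and the interaction, with its 95% interval; filled points were called. The x axes differ in range. Each LPS panel holds 7 filled points, and the interaction panel none.

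PLK2 and PLK3 encode polo-like kinases of the stress-response branch of the family, which act in centriole duplication and checkpoint signalling and are quickly induced early-response genes. With TP53INP1, they had the 3 largest log2 changes with LPS among the 10 genes at both CO2 levels. PLK2 (ENSG00000145632, chr5:58453982-58460260, minus strand) had 50.1, 38.2 and 42.1 CPM at 10% CO2 with LPS, 74.9, 80.2 and 62.8 CPM at 5% CO2 with LPS, 7.79, 8.72 and 7.06 CPM at 10% CO2, and 10.8, 9.43 and 10.0 CPM at 5% CO2. No 2 of these groups overlapped. With LPS, PLK2 rose by log2 2.47 ± 0.13 (SE) at 10% CO2 and by 2.84 ± 0.13 at 5% CO2 (adjusted p = 1.84e-11 and 2.15e-12). At 10% CO2 it fell by 0.74 on the log2 scale in LPS-treated cells (SE 0.12, adjusted p = 0.00181), and the call held under all 21 alternatives, with an adjusted p of at most 0.0182. Without LPS its change with CO2 was -0.37 ± 0.14 (adjusted p = 0.168, 95% interval -0.65 to -0.08). The difference of these CO2 changes, the interaction, was -0.37 ± 0.18 (edgeR, adjusted p = 0.832, 95% interval -0.75 to 0.00).

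PLK3 (ENSG00000173846, chr1:44800225-44805990, plus strand) had 48.4, 46.8 and 41.0 CPM at 10% CO2 with LPS, 49.1, 39.4 and 38.7 CPM at 5% CO2 with LPS, 11.8, 10.6 and 13.8 CPM at 10% CO2, and 13.9, 14.4 and 10.5 CPM at 5% CO2. The LPS libraries lay far above the others, and the CO2 levels overlapped at each LPS level. PLK3 rose with LPS by 1.91 ± 0.14 at 10% CO2 and by 1.71 ± 0.14 at 5% CO2 (log2, SE, adjusted p = 2.01e-09 and 1.19e-08). Its change with CO2 was 0.10 ± 0.13 with LPS (95% interval -0.17 to 0.37) and -0.10 ± 0.14 without (-0.39 to 0.20), adjusted p = 0.683 and 0.764. The interval with LPS does not reach the value of PLK2 in the same libraries.

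The promoter sequences of these kinases are shown because they rose together with LPS. Each is the 250 bases before the RefSeq start on GRCh38.p14, and capitals mark motif matches on either strand. The motifs searched were AP-1 (TGANTCA), the cyclic AMP response element or CRE (TGACGTCA), its half-site (TGACG, which also lies within the full CRE), the TATA box (TATAAA), the NF-kB consensus and the p53 half-site consensus.
PLK2, chr5:58460087-58460336, minus strand: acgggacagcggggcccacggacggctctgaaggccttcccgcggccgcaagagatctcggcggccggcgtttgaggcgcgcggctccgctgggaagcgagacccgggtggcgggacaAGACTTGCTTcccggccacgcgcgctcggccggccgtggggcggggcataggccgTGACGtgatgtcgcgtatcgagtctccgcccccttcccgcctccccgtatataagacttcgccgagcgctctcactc
PLK3, chr1:44800127-44800376, plus strand: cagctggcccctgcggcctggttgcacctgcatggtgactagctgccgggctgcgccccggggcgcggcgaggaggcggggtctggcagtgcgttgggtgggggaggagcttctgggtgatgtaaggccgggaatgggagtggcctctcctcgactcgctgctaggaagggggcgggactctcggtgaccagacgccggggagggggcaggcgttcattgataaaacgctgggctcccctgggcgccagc

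Both windows are rich in G and C (71.2% in PLK2 and 70.0% in PLK3). PLK2 held a p53 half-site 132 bases and a CRE half-site 77 bases before the start, and PLK3 held none of the 6 motifs. Among 35116 RefSeq promoters of this length, 5.57% held a p53 half-site, 21.2% a CRE half-site, 1.65% a full CRE, 6.57% an AP-1 match, 5.21% an NF-kB match and 10.7% a TATA box. Of the 10 genes, 8 were in the promoter table. In the rest of those, MDM2 held an AP-1 match 118 bases before 1 start and 125 bases before another. GADD45B held a TATA box 31 bases before its start. The remaining matches were a CRE half-site in XPC, and CRE half-sites and a p53 half-site before separate starts of SESN1.

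GADD45A and GADD45B encode small acidic proteins that bind PCNA, CDK1 and the kinase MTK1 and couple stress to growth arrest and p38 or JNK signalling; GADD45B is also a known NF-kB target. GADD45A (ENSG00000116717, chr1:67685061-67688338, plus strand) had 55.6, 72.5 and 72.9 CPM at 10% CO2 with LPS, 72.5, 83.8 and 68.9 CPM at 5% CO2 with LPS, 30.5, 30.5 and 40.8 CPM at 10% CO2, and 34.9, 41.2 and 35.9 CPM at 5% CO2. LPS libraries lay above the others at both CO2 levels, and the CO2 levels overlapped. The rise of GADD45A with LPS was 0.98 ± 0.13 at 10% CO2 and 1.01 ± 0.13 at 5% CO2 (log2, SE, adjusted p = 8.81e-06 and 8.88e-06). Its CO2 changes were -0.16 ± 0.13 with LPS and -0.13 ± 0.13 without (adjusted p = 0.454 and 0.629).

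GADD45B (ENSG00000099860, chr19:2476122-2478259, plus strand) moved less. It averaged 31.1 ± 4.01 CPM at 10% CO2 with LPS, 30.3 ± 3.01 at 5% CO2 with LPS, 26.1 ± 2.77 at 10% CO2 and 22.9 ± 2.22 at 5% CO2 (SD, n = 3). It rose with LPS at 5% CO2 by 0.40 ± 0.12 (adjusted p = 0.0169), and at 10% CO2 the change was 0.25 ± 0.12 (adjusted p = 0.110), with LPS libraries overlapping those without. With the GC correction the change at 10% CO2 was 0.45 and called (adjusted p = 0.00151). The call at 5% CO2 was lost without 5% CO2 replicate 3 or 5% CO2 with LPS replicate 3 (adjusted p = 0.0850 to 0.100). On library sizes only it was lost as well (adjusted p = 0.142).

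CDKN1A encodes p21, the inhibitor of cyclin-dependent kinases through which p53 halts the cell cycle, and MDM2 the ligase that degrades p53. CDKN1A (ENSG00000124762, chr6:36676460-36687339, plus strand) had 119.7, 113 and 128 CPM at 10% CO2 with LPS, 158, 158 and 135 CPM at 5% CO2 with LPS, 86.6, 96.3 and 125 CPM at 10% CO2, and 114, 147 and 114 CPM at 5% CO2. All 10% CO2 libraries with LPS lay below all 5% CO2 libraries with LPS, and the other groups compared overlapped. None of the 4 pairwise changes was called: with CO2 they were -0.32 ± 0.13 with LPS (adjusted p = 0.115) and -0.28 ± 0.13 without (adjusted p = 0.254). With LPS they were 0.23 ± 0.13 at 10% CO2 (adjusted p = 0.177) and 0.27 ± 0.13 at 5% CO2 (adjusted p = 0.133). Its 95% interval with LPS at 10% CO2 ran from -0.04 to 0.49, below the fitted rises of MDM2, GADD45A, TP53INP1, PLK2 and PLK3 there. It gained a call with LPS at 10% CO2 without 10% CO2 replicate 3 and at 5% CO2 without 5% CO2 replicate 2, and at both levels with a GC correction (adjusted p = 0.00183 and 0.00666). At 5% CO2 it was also called with no filter on low counts (adjusted p = 0.0459). For CO2 with LPS it was called lower with no filter on low counts (adjusted p = 0.0175) and with only the groups compared (adjusted p = 0.0285).

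MDM2 (ENSG00000135679, chr12:68808176-68850686, plus strand) had 99.9, 97.2 and 106 CPM at 10% CO2 with LPS, 97.2, 102 and 107 CPM at 5% CO2 with LPS, 62.9, 62.8 and 56.5 CPM at 10% CO2, and 68.5, 65.8 and 81.7 CPM at 5% CO2. LPS libraries lay above the others at both CO2 levels. MDM2 rose with LPS by 0.73 ± 0.09 at 10% CO2 and by 0.50 ± 0.09 at 5% CO2 (log2, SE, adjusted p = 4.01e-06 and 0.000381). Its CO2 change was -0.02 ± 0.09 with LPS and -0.25 ± 0.09 without (adjusted p = 0.932 and 0.170). In the group without LPS the 10% CO2 libraries lay below those at 5% CO2, and the call was reached only with the GC correction, alone (adjusted p = 0.0431) or with a replicate block (adjusted p = 0.0102). Exons of MDM2 overlap those of the carboxypeptidase M gene on the opposite strand over 1.00% of their length.

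TP53INP1 encodes a small nuclear and autophagy-linked protein that helps p53 turn to cell death genes. TP53INP1 (ENSG00000164938, chr8:94925972-94949411, minus strand) had 17.6, 18.1 and 16.7 CPM at 10% CO2 with LPS, 15.0, 14.7 and 16.8 CPM at 5% CO2 with LPS, 2.10, 3.14 and 3.13 CPM at 10% CO2, and 5.56, 3.86 and 6.41 CPM at 5% CO2. Without LPS the CO2 levels did not overlap, with LPS they did, and every LPS library lay above every library without. The fitted difference between 10% and 5% CO2 without LPS, known at the choice of the genes, was -0.93 ± 0.19. Its call was lost in 4 of 21 alternatives. These were only the groups compared, and leaving out 5% CO2 replicate 1, 5% CO2 replicate 3 or 10% CO2 replicate 2. With LPS the CO2 difference of TP53INP1 was 0.17 ± 0.15 (adjusted p = 0.539, 95% interval -0.16 to 0.49). Its rise with LPS was 2.64 ± 0.18 at 10% CO2 and 1.55 ± 0.17 at 5% CO2 (log2, SE, adjusted p = 9.11e-10 and 8.63e-07), and both calls held under all 21 alternatives. Each rise was measured from a group without LPS that gave the known value. The rises are not independent of that value, and their gap is a description.

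The difference between those rises, the interaction of CO2 and LPS, was 1.09 ± 0.25 for TP53INP1. It contains the value known at the choice of the genes and is a description. Of the other 9 genes, 0 were called for the interaction by edgeR and 0 by DESeq2, where edgeR called 0.0244% of all genes (4), and 1, ZMAT3, had an unadjusted p under 0.05. The interaction of ZMAT3 was 0.63 ± 0.25 (edgeR, adjusted p = 0.736). Counts of TP53INP1 were 46 to 349 per library. Its mean over the 12 libraries, 10.2 CPM, was the lowest of the 10 genes, though ZMAT3 averaged less in both LPS groups.

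SESN1 encodes a sestrin, a family that restrains mTORC1 and supports antioxidant defence. SESN1 (ENSG00000080546, chr6:108986437-109094819, minus strand) had 40.2, 42.0 and 43.9 CPM at 10% CO2 with LPS, 31.8, 32.7 and 33.4 CPM at 5% CO2 with LPS, 36.9, 35.7 and 34.5 CPM at 10% CO2, and 31.0, 32.2 and 35.4 CPM at 5% CO2. The group at 10% CO2 with LPS stood above each of the other 3 groups, and at 5% CO2 the libraries with and without LPS overlapped. SESN1 rose at 10% CO2 in LPS-treated cells by 0.36 ± 0.09 (log2, SE, adjusted p = 0.0186). It rose with LPS at 10% CO2 by 0.24 ± 0.09 (adjusted p = 0.0453), and at 5% CO2 the change was -0.01 ± 0.09 (adjusted p = 0.954). The interaction was 0.25 ± 0.13 (adjusted p = 0.845). The CO2 call was lost without 5% CO2 with LPS replicate 1 or 2 or 10% CO2 with LPS replicate 2 or 3 (adjusted p = 0.0636 to 0.0833), and with no filter on low counts (adjusted p = 0.0545). The LPS call at 10% CO2 was lost in 13 of 21 alternatives. Leaving out any library but 10% CO2 replicate 1 and 5% CO2 replicate 3 ended that call (adjusted p = 0.0511 to 0.149). So did library sizes only (adjusted p = 0.876), no filter on low counts (adjusted p = 0.296) and only the groups compared.

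ZMAT3 encodes an RNA-binding zinc finger protein that regulates splicing and mRNA stability, and XPC the damage-recognition factor of nucleotide excision repair. ZMAT3 (ENSG00000172667, chr3:179017223-179072279, minus strand) averaged 15.3 ± 1.35 CPM at 10% CO2 with LPS, 13.7 ± 1.45 at 5% CO2 with LPS, 11.6 ± 3.50 at 10% CO2 and 16.1 ± 2.81 at 5% CO2 (SD, n = 3). Neither its CO2 changes (0.16 ± 0.18 with LPS and -0.47 ± 0.17 without, adjusted p = 0.615 and 0.172) nor its LPS changes (0.39 ± 0.18 at 10% and -0.24 ± 0.17 at 5% CO2, adjusted p = 0.0966 and 0.361) were called. Within the 10% CO2 group, replicate 1 had 15.7 CPM and the others 9.78 and 9.45 CPM. Without that library the CO2 change without LPS and the LPS change at 10% CO2 were both called. With the replicate number as a block they were -0.48 (adjusted p = 0.0480) and 0.41 (adjusted p = 0.0203), both called.

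XPC (ENSG00000154767, chr3:14145147-14178783, minus strand) was the 1 gene of the 10 called lower with LPS. It had 14.5, 18.4 and 16.0 CPM at 10% CO2 with LPS, 15.5, 19.3 and 17.3 CPM at 5% CO2 with LPS, 25.1, 31.0 and 26.6 CPM at 10% CO2, and 23.1, 22.9 and 25.3 CPM at 5% CO2. LPS libraries lay wholly below the others at both CO2 levels. XPC fell with LPS by 0.76 on the log2 scale at 10% CO2 (SE 0.12, adjusted p = 5.9e-05) and by 0.45 at 5% CO2 (SE 0.12, adjusted p = 0.00816), and its CO2 changes were -0.09 ± 0.12 with LPS and 0.21 ± 0.12 without (adjusted p = 0.692 and 0.356). Exons of XPC-AS1 and LSM3 on the opposite strand cover 23.8% and 6.63% of its exon bases. XPC-AS1 averaged 11.1 counts per library and LSM3 1325, against 429 for XPC. Since the strand setting of the counting is not given in the sources used here, the XPC values may hold or lack reads of these neighbours. In bulk RNA, fewer cells that express a gene and less of its RNA per cell cannot be told apart, here or for the other genes.

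**Figure D2:**
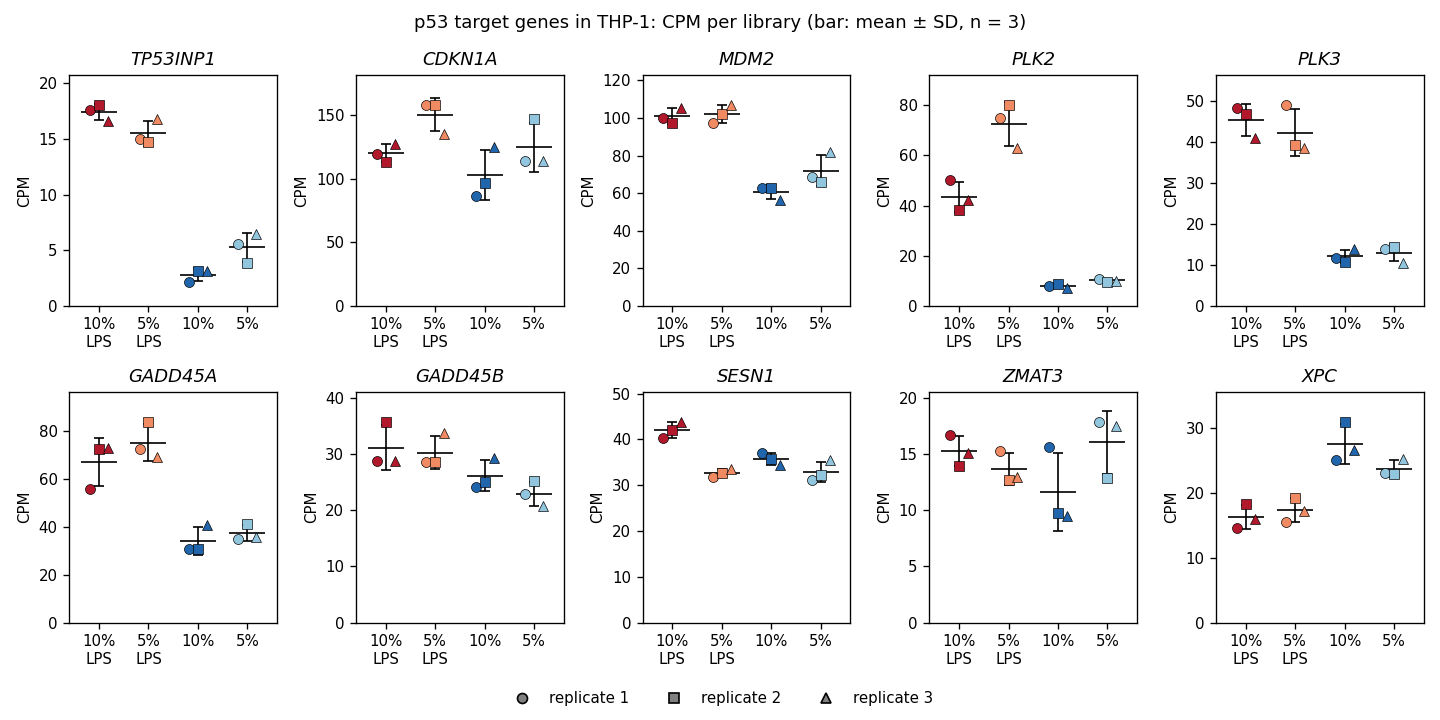
CPM (y axis, from 0) of the 10 genes in each library of the 4 groups (x axis: 10% and 5% CO2 with LPS, then without); symbols mark replicates, and bars the mean ± SD of 3 libraries. PLK2, PLK3, GADD45A, MDM2 and TP53INP1 stand higher in the LPS groups, XPC lower, and CDKN1A and ZMAT3 overlap between LPS and no LPS.

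Levels were compared between genes per kilobase of annotated exon, since longer genes collect more counts. Averaged over the 12 libraries, CDKN1A had the highest level at 40.8 CPM per kb, followed by GADD45A (25.8), GADD45B (12.9), PLK3 (8.11), PLK2 (7.03), SESN1 (6.99), MDM2 (6.32), XPC (4.43), TP53INP1 (1.81) and ZMAT3 (1.47). CDKN1A and then GADD45A came first in every group, with ranges that did not overlap each other or the next gene. Below them the order changed with LPS. PLK2 came after these at 5% CO2 with LPS, at 15.2 ± 1.86 CPM per kb, in a range that overlapped GADD45B, and at place 8 in both groups without LPS, at 1.65 ± 0.174 at 10% CO2 and 2.12 ± 0.149 at 5% CO2. At 10% CO2 with LPS it was at place 5, at 9.12 ± 1.27, overlapping SESN1. TP53INP1 was last in both groups without LPS, at 0.492 ± 0.106 CPM per kb at 10% CO2 and 0.929 ± 0.228 at 5% CO2, clear of ZMAT3, and at place 9 in both LPS groups, at 3.07 ± 0.125 at 10% CO2 and 2.73 ± 0.202 at 5% CO2. Exon length here is the union of all annotated transcripts, which is 13.269 kb for MDM2 and 9.646 kb for ZMAT3, so the level of a shorter transcript in use is understated.

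**Figure D3:**
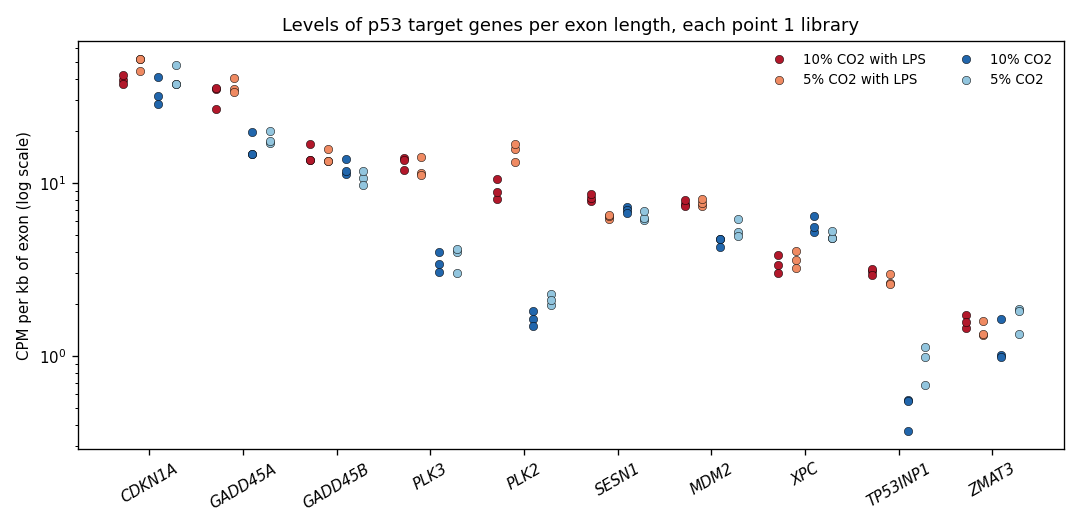
Level per exon length (CPM per kb, log scale, y axis) of the 10 genes (x axis, by mean), each point 1 library, coloured by group. CDKN1A lies highest in every group; PLK2, PLK3 and TP53INP1 show the widest gap between LPS and no LPS.

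TP63, which encodes a relative of p53 that can bind the same elements, had 3.95 ± 1.84 CPM at 10% CO2 with LPS, 1.73 ± 0.528 at 5% CO2 with LPS, 0.588 ± 0.0890 at 10% CO2 and 1.33 ± 0.483 at 5% CO2 (SD, n = 3), on counts of 10 to 98 per library. It rose with LPS at 10% CO2 by 2.73 ± 0.38 (adjusted p = 1.73e-05), and its change with LPS at 5% CO2 was 0.38 ± 0.37 (adjusted p = 0.510). The difference between those, 2.35 ± 0.54, had an adjusted p of 0.189 by edgeR.

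TP73, which encodes another relative, had 13.1 ± 1.47 CPM at 10% CO2 with LPS, 19.7 ± 4.56 at 5% CO2 with LPS, 20.2 ± 3.01 at 10% CO2 and 27.3 ± 5.26 at 5% CO2. It fell with LPS at 10% CO2 by 0.62 on the log2 scale (SE 0.17, adjusted p = 0.00987), a call lost without 10% CO2 replicate 3 or 10% CO2 with LPS replicate 2 (adjusted p = 0.0537 to 0.0644). Its change with LPS at 5% CO2 was not called in the reported fit. Over the alternatives that change was -0.64 to -0.28. It was called lower in 6 of 21, among them library sizes only (adjusted p = 0.00839) and no filter (adjusted p = 0.00452). MDM4, the partner of MDM2 in restraining p53, was called in none of the 5 comparisons in the reported fit. It had 34.7 ± 4.13 CPM at 10% CO2 with LPS, 36.1 ± 1.14 at 5% CO2 with LPS, 33.8 ± 7.49 at 10% CO2 and 46.4 ± 10.0 at 5% CO2. Its changes with LPS were 0.04 ± 0.16 at 10% CO2 and -0.36 ± 0.16 at 5% CO2 (adjusted p = 0.881 and 0.112), and those with CO2 were -0.06 ± 0.16 with LPS and -0.46 ± 0.16 without (adjusted p = 0.863 and 0.148). The change with LPS at 5% CO2 was called on library sizes only (adjusted p = 0.0158), with no filter (adjusted p = 0.0211) and without 10% CO2 replicate 3 or 5% CO2 replicate 2. The CO2 change without LPS was called with no filter (adjusted p = 0.0119) and with the GC correction (adjusted p = 0.0447). Of 13 tested relatives and regulators of p53, 2 rose (TP63 and CHEK1) and 1 fell (TP73) with LPS at 10% CO2, where 35.2% of all genes were called. With LPS at 5% CO2, 0 of the 13 were called, where 24.9% of all genes were. CHEK1, a checkpoint kinase, rose at 10% CO2 by 0.31 ± 0.11 (adjusted p = 0.0318) and lost its call without 10% CO2 replicate 3 or 10% CO2 with LPS replicate 2 or 3 (adjusted p = 0.0534 to 0.164), or on library sizes only (adjusted p = 0.511). For CO2 with LPS 1 of the 13 rose (TP63) and 1 fell (TP73), where 8.75% of all genes were called. For CO2 without LPS 0 of the 13 were called, where 1.46% of all genes were.

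**Figure D4:**
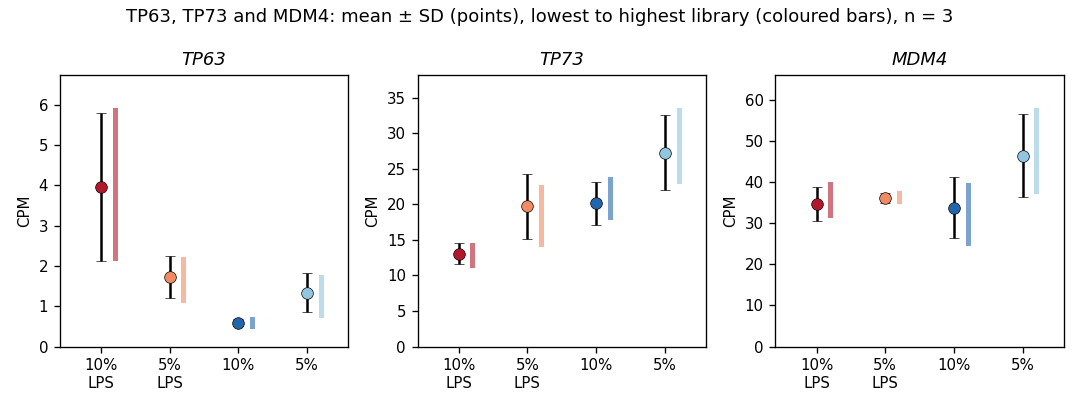
CPM (y axis, from 0) of TP63, TP73 and MDM4 in the 4 groups (x axis: 10% and 5% CO2 with LPS, then without); points are means with SD, n = 3, and coloured bars run from the lowest to the highest library. TP63 has its highest mean at 10% CO2 with LPS, and TP73 and MDM4 theirs at 5% CO2.

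Of 36 further p53 targets, 33 were tested, and they moved in both directions with LPS. At 10% CO2, 11 rose and 7 fell, where the calls over all genes were 16.6% upward and 18.6% downward. At 5% CO2, 10 rose and 3 fell, where they were 11.8% upward and 13.1% downward. Their median log2 change was 0.06 at 10% CO2 and 0.15 at 5% CO2, against -0.02 and -0.01 over all genes. BTG2, an antiproliferative early-response gene, rose by 6.26 ± 0.15 at 10% CO2 and 5.57 ± 0.14 at 5% CO2 (log2, SE, adjusted p = 8.28e-16 and 3.14e-15). DRAM1, a lysosomal regulator of autophagy, rose by 5.06 ± 0.17 and 4.48 ± 0.16 at 10% and 5% CO2. E2F7, a repressor of E2F target genes, rose by 2.35 ± 0.10 and 2.22 ± 0.10, and SUSD6 by 1.58 ± 0.11 and 1.52 ± 0.11, in the same order. These 4 had the smallest p of the list at both CO2 levels and kept their calls under all 21 alternatives.

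The 3 that fell at 5% CO2, named after their values were seen, were the death receptor gene TNFRSF10A (-0.71 ± 0.14), APAF1 of the apoptosome (-0.45 ± 0.13) and the translesion polymerase gene POLH (-0.37 ± 0.11). Without 5% CO2 replicate 3 or 5% CO2 with LPS replicate 1, APAF1 and POLH lost their calls (adjusted p = 0.0654 to 0.109). With CO2 alone BTG2 was the only one of the 33 called, with a change of -0.67 ± 0.13 (adjusted p = 0.0211); the call was lost without 10% CO2 replicate 2 or 3 or 5% CO2 replicate 1 or 2 (adjusted p = 0.0521 to 0.146), or with only the groups compared (adjusted p = 0.0787). At 10% CO2 without LPS BTG2 had 15.7 ± 3.77 CPM, against 25.0 ± 2.15 at 5% CO2.

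**Figure D5:**
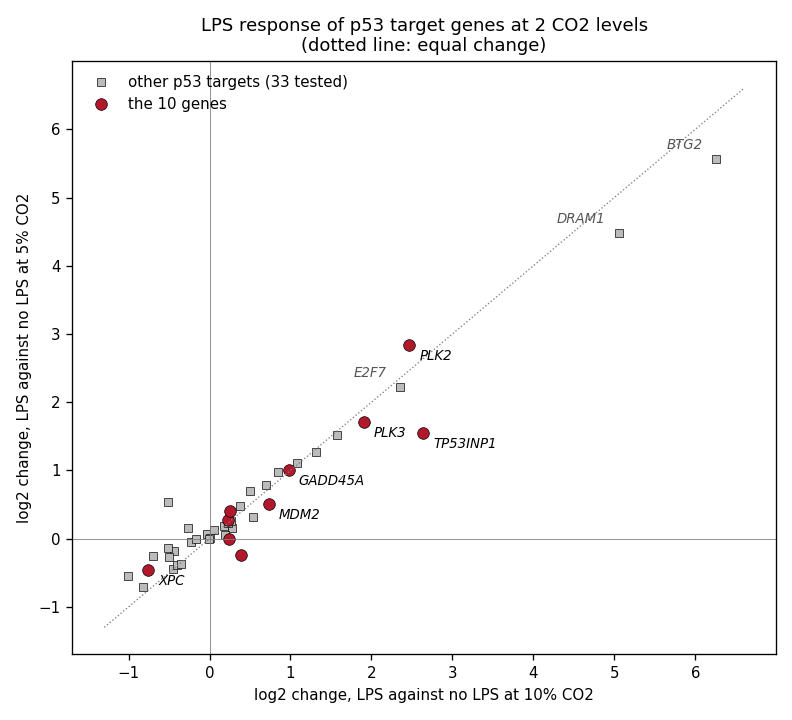
Fitted log2 change with LPS at 10% CO2 (x axis) and 5% CO2 (y axis) of the 10 genes (circles) and 33 other p53 targets (squares); the dotted line marks equal change. TP53INP1 lies to the right of the line and PLK2 to its left, and BTG2 and DRAM1 rose the most of the genes plotted. The distance of TP53INP1 from the line holds the value known at the choice of the genes. The axes share the same fit and their points are not independent.

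For CO2 with LPS, 2 of the 33 rose and 3 fell, where 8.75% of all genes were called. Genes outside the list of 10 that are named here for this comparison were picked by a rule that takes called genes, so their number is not a result. DDB2, which recognises UV damage together with DDB1, fell by 0.87 on the log2 scale (SE 0.16, adjusted p = 0.00346), to 8.17 ± 1.14 CPM at 10% CO2 with LPS, against 15.0 ± 0.716 at 5% CO2 with LPS. TP53INP2, the paralogue of TP53INP1, fell by 0.66 (SE 0.12, adjusted p = 0.00477), to 88.3 ± 14.2 CPM at 10% CO2 with LPS, against 139.9 ± 24.0 at 5% CO2 with LPS. Both kept their calls under all 21 alternatives. Of other p53 targets ASCC3 and FBXO22 rose (0.42 and 0.39) and TNFRSF10C and CCNG1 fell (-0.63 and -0.40). TP63 rose (1.19) and TP73 fell (-0.59), CDKN1B rose (0.34) and CDKN1C and PLK1 fell (-0.76 and -0.55), and CDK6, CCND1, CDK1 and CCNE2 rose (0.46, 0.42, 0.37 and 0.42). Without 10% CO2 with LPS replicate 2, all 13 of these other genes lost their calls (adjusted p = 0.0503 to 0.249). Leaving out 10% CO2 with LPS replicate 1 or 3 ended 5 or 7 of the 13 calls, and leaving out 5% CO2 with LPS replicate 1, 2 or 3 ended 12, 10 or 2. Leaving out 1 library of the groups without LPS ended at most 5 of them (10% CO2 replicate 2).

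Among the 9 tested paralogues of the 10 genes, 2 rose and 2 fell with LPS at each CO2 level, where 35.2% of all genes were called at 10% CO2 and 24.9% at 5% CO2. TP53INP2 rose by 1.10 ± 0.13 at 10% CO2 and 1.25 ± 0.13 at 5% CO2 (log2, SE, adjusted p = 1.9e-06 and 5.04e-07), the same direction as TP53INP1. Without LPS, TP53INP2 had a CO2 change of -0.52 ± 0.13 (adjusted p = 0.0495), a call lost in 12 of 21 alternatives, among them on leaving out any 1 of the 6 libraries compared, 5% CO2 with LPS replicate 2 or 10% CO2 with LPS replicate 3 (adjusted p = 0.0551 to 0.249). The sestrins split: SESN2 rose by 0.70 ± 0.11 at 10% CO2 and 0.79 ± 0.11 at 5% CO2 and SESN3 fell by 0.67 (SE 0.12) at 10% CO2 and 0.54 (SE 0.12) at 5% CO2. SESN1 lay between them at 0.24 and -0.01. PLK1, the mitotic kinase of the family, fell at 10% CO2 by 0.89 (SE 0.16, adjusted p = 0.000566), opposite to PLK2 and PLK3, and its change at 5% CO2 was -0.43 ± 0.16 (adjusted p = 0.0643). The change of PLK1 at 5% CO2 was called by DESeq2 (adjusted p = 0.0463), with a replicate block (adjusted p = 0.00256), with only the groups compared (adjusted p = 0.00346), on library sizes only (adjusted p = 0.0162) and with no filter (adjusted p = 0.000647), and without 10% CO2 replicate 1 or 3 or 10% CO2 with LPS replicate 3. CDKN1B, which encodes p27, fell with LPS at 5% CO2 by 0.29 (SE 0.10, adjusted p = 0.0336), a call lost on leaving out any 1 of the 6 libraries compared (adjusted p = 0.0528 to 0.124). PLK4, CDKN1C, GADD45G and MDM4 were not called with LPS at either CO2 level in the reported fit. On library sizes only PLK4 was called at 10% CO2 (adjusted p = 0.0396). GADD45G was at most 1.55 CPM.

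Of 14 tested genes of nucleotide excision repair, the pathway of XPC, 3 rose and 4 fell with LPS at 10% CO2, where 35.2% of all genes were called, and 0 rose and 2 fell at 5% CO2, where 24.9% were. Those at 5% CO2 were ERCC4 (-0.79 ± 0.15, adjusted p = 0.000545), an endonuclease, and ERCC6 (-0.44 ± 0.13, adjusted p = 0.0162), which couples repair to transcription. ERCC6 lost its call without 5% CO2 replicate 3 or 5% CO2 with LPS replicate 1 (adjusted p = 0.0869 to 0.109). At 10% CO2 those with the smallest p were ERCC5 (-0.63 ± 0.13, adjusted p = 0.000647), DDB1 (0.28 ± 0.07, adjusted p = 0.00312), ERCC8 (0.48 ± 0.14, adjusted p = 0.0118) and XPA (-0.39 ± 0.12, adjusted p = 0.0132). DDB1 and ERCC8 lost their calls on library sizes only (adjusted p = 0.435 and 0.142). ERCC8 lost its call without 10% CO2 replicate 2 (adjusted p = 0.0550), and XPA without 10% CO2 with LPS replicate 2 (adjusted p = 0.0789).

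Of 12 tested cyclins, cyclin-dependent kinases and PCNA, the machinery that p21 restrains, 4 rose with LPS at each CO2 level, where upward calls over all genes were 16.6% at 10% CO2 and 11.8% at 5% CO2. CCND1 rose by 1.25 ± 0.10 at 10% CO2 and 1.16 ± 0.10 at 5% CO2, CCNE2 by 1.52 ± 0.13 and 0.98 ± 0.13, CDK1 by 0.72 ± 0.11 and 0.51 ± 0.11, and CDK6 by 1.23 ± 0.10 and 0.46 ± 0.10 (log2, SE), in the same order. CCND3, the 1 of the 12 called lower at 5% CO2, fell by 0.40 (SE 0.09, adjusted p = 0.00165), where 13.1% of all genes were called lower. At 10% CO2, 3 of the 12 fell, where 18.6% of all genes were called lower. CDKN1A itself was not called in these comparisons.

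The genes whose pattern over the 12 libraries was most like that of TP53INP1, by the root-mean-square difference of centred log2 CPM among 10810 genes, were STARD4, RAP2C and IRGQ (0.29, 0.33 and 0.34, against a median of 1.13 over all those genes). For CDKN1A they were ZAR1, MYO1G and PAK4 (0.08, 0.10 and 0.10, median 0.33), and for GADD45B RPLP0, FBL and RPS6KB2 (0.07, 0.08 and 0.08, median 0.29). STARD4, a cholesterol carrier gene, had 94.7 ± 14.6 CPM at 10% CO2 with LPS, 66.6 ± 5.30 at 5% CO2 with LPS, 14.4 ± 0.259 at 10% CO2 and 19.1 ± 1.07 at 5% CO2 (SD, n = 3). PAK4, close to CDKN1A and a kinase gene, had 45.9 ± 1.76 CPM at 10% CO2 with LPS, 55.7 ± 0.358 at 5% CO2 with LPS, 40.8 ± 5.43 at 10% CO2 and 49.4 ± 3.95 at 5% CO2. All libraries share one processing and the same 4 groups, so likeness here is a description.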

How the data were processed

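Poly(A)-selected RNA of 12 THP-1 libraries was sequenced in paired ends, per the labels' protocols. The deposited values are raw read counts per Ensembl gene. Per the submitters' processing notes the tools were Trimmomatic 0.36, STAR 2.5.2b and Subread 1.5.2 (featureCounts), with GRCh38 as the build; neither the annotation release nor the strand setting is given in the sources used here. A symbol was found for 98.1% of identifiers, which held 99.5% of counts.

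Counts were fitted with edgeR 4.0.16 (limma 3.58.1, R 4.3.3): filterByExpr, TMM, 1 model of 4 group means over all 12 libraries, robust quasi-likelihood F test, Benjamini-Hochberg adjustment over 16402 genes, calls at an adjusted p under 0.05. Contrasts were 10% against 5% CO2 with and without LPS, LPS against none at each CO2 level, and their interaction. Intervals are 95% from the fit, per gene. The common biological coefficient of variation was 10.7%; library pairs of 1 group differed beyond counting noise (chi-square over its degrees of freedom 8.05 to 26.2), so each library counted as 1 sample. Floors of 3 counts cover counting error only. The test was tried on simulated counts with 200 changed genes. Same-numbered libraries of 10% CO2 with and without LPS deviated together (correlations 0.251, 0.192 and 0.106), so blocked values are given where they change a call. Alternatives were DESeq2 1.42.0, other scalings and filters, a replicate block, the compared groups alone, a GC correction (added after the data were seen) and leaving out each library.

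The 10 genes and all gene lists were chosen with earlier results of these data known; 1 gene of the lists is not reported here. Of each further list, the up to 4 called genes with the smallest p per comparison were named, with every tested paralogue, TP63, TP73 and MDM4; for likeness, 3 genes each, among genes averaging 5 CPM or more. Promoters are from RefSeq (GRCh38.p14).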

Additional observations from a re-analysis of the deposited data

How the results depend on the processing

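No called change of the 10 genes or of the other named genes turned its direction under the alternatives run. Of uncalled changes of the 10 genes, 15 values turned with 1 library left out and 9 under other alternatives, and of the other genes 6 and 4. The causes were not tested.

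With a replicate block, all-gene calls were 2121 for CO2 with LPS, 699 for CO2 without LPS, 6375 and 4622 for LPS at 10% and 5% CO2 and 11 for the interaction, and calls among the 10 genes were 2, 2, 8, 7 and 0 in the same order. Deviations of same-numbered libraries correlated at -0.136 to 0.290, and in 21 of 36 cases a library correlated best with its own number in another group. Between 10% CO2 with and without LPS the 3 correlations were 0.251, 0.192 and 0.106, so the numbers may pair those libraries. For each of the other pairs of groups at least 1 correlation was under 0.1, while the replicate 1 libraries correlated at 0.100 to 0.290. Whether the numbers pair libraries of those groups cannot be told from these values. Of the printed changes the block alone gave calls to ZMAT3 (CO2 without LPS, and LPS at 10% CO2) and PLK1 (LPS at 5% CO2) and ended none. With GC correction it also gave calls to PLK2 for CO2 without LPS (-0.38, adjusted p = 0.0411) and PLK3 for CO2 with LPS (0.24, adjusted p = 0.0485).

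For CO2 without LPS, calls over all genes were 572 with no filter, 674 by DESeq2, 71 with only the groups compared, 848 with a GC correction and 1989 with block and GC correction; calls among the 10 genes were 0 with only the groups compared, 2 with the GC correction and 4 with block and GC correction. For CO2 with LPS, block and GC correction gave 2955 calls over all genes. For the interaction, all-gene calls were 1 with RLE size factors, 2 on library sizes only, 108 with no filter, 1 with at least 1 CPM in 3 libraries, 53 by DESeq2 and 33 with block and GC correction; no filter and DESeq2 each counted 1 of the 10 genes, TP53INP1, whose interaction holds the value known at the choice of the genes, so nothing is read from it.

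Leaving out 1 library gave 0 (without 10% CO2 replicate 2) to 511 calls (without 10% CO2 replicate 1) for CO2 without LPS, 271 (without 10% CO2 with LPS replicate 2) to 1804 (without 5% CO2 with LPS replicate 3) for CO2 with LPS, and 1 to 37 (without 5% CO2 with LPS replicate 3) for the interaction. Without 10% CO2 replicate 1 the interaction had 26. CO2 calls without LPS were 1, 4 and 139 without 5% CO2 replicate 1, 2 and 3 and 143 without 10% CO2 with LPS replicate 3. CO2 calls with LPS were 414 and 458 without 5% CO2 with LPS replicate 1 and 2 and 917 without 10% CO2 with LPS replicate 3. For LPS, calls over all genes were 4652 to 5923 at 10% CO2 and 3116 to 4371 at 5% CO2. Among the 10 genes the calls were 0 to 2 for CO2 without LPS, 1 to 2 with LPS and 6 to 8 for LPS at either CO2 level. The CO2 counts without LPS rest on the value known at the choice of the genes, and nothing is read from them.

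The log2 changes that turned were these. SESN1 with LPS at 5% CO2 was 0.0063 with RLE, 0.0057 by DESeq2, 0.0095 with GC correction and 0.010 with block and GC correction. On library sizes only, GADD45B for CO2 with LPS was -0.0043, CDKN1C with LPS at 5% CO2 -0.15 and MDM4 with LPS at 10% CO2 -0.18. With GC correction, and with block and GC correction, CDKN1C with LPS at 10% CO2 was 0.079 and 0.085, the interaction of CDKN1A 0.054 and 0.053, and that of GADD45A 0.064 and 0.058. Leaving out 1 library gave ranges of -0.050 to 0.045 for SESN1 with LPS at 5% CO2, -0.059 to 0.13 for GADD45B and -0.051 to 0.022 for MDM2 for CO2 with LPS, and -0.18 to 0.12 and -0.10 to 0.13 for the interactions of CDKN1A and GADD45A. They were -0.15 to 0.0019 for MDM4 for CO2 with LPS, -0.14 to 0.14 for CDKN1C with LPS at 5% CO2, and -0.13 to 0.16 for MDM4 and -0.19 to 0.020 for PLK4 with LPS at 10% CO2.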
